A study of Equus caballus with 78 samples.

Results

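The microRNAs eca-miR-122, eca-miR-192 and eca-miR-215, best known from liver and gut, were followed in extracellular vesicles of plasma and joint fluid of horses. They are 3 of the 690 horse microRNA names counted in the study, 270 of which had a read in some library. The 3 were chosen by name as liver and gut microRNAs, and with levels from these same libraries already known. In an earlier pass over the same counts, miR-215 led the comparison of the OA joint with the CTRL joint. miR-215 and miR-122 also stood out between plasma and joint fluid, and miR-192 over time in the CTRL joint. Their levels are therefore given as a description, and no p-value is printed for them in the comparisons of horse sums between fluids and joints. Where a fit is said to have called one of them, that describes the fit and supports nothing about them.

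MicroRNAs are short RNAs that guide repression of matching messenger RNAs, and vesicles released by cells carry some of them into blood and other fluids. miR-122 is the dominant microRNA of the hepatocyte, where it supports lipid and cholesterol metabolism, and its release into blood is a widely used marker of liver injury. miR-192 and miR-215 share a seed, the stretch of a microRNA that selects its targets, and in human tissue both are abundant in intestinal epithelium, liver and kidney. In human the genes of miR-192 and miR-215 lie in separate clusters, each beside a copy of miR-194, and both are induced by p53.

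The samples were vesicles of plasma, of synovial fluid from a joint labelled OA and of synovial fluid from a joint labelled CTRL, all taken from the same 4 horses (numbered 2, 4, 6 and 8) in a model of equine osteoarthritis. Each fluid gave 26 libraries, 78 in all, over 7 time points labelled 0, 10, 35, 42, 49, 56 and 63 without a unit. This gives 21 groups, each of 3 or 4 horses. The labels name no way of inducing the disease and no age, sex or breed of the horses, and plasma carries no joint label. The CTRL joint belongs to the same horse as the OA joint, so it is not a joint of an unaffected animal. Nothing in the labels says whether a library was made from a single draw or a pool. The p-values of horse sums measure the spread between these 4 horses. Those at single time points and over time come from fits of libraries. Such fits count repeated libraries of a horse as independent unless horse is a block, so their p-values do not measure the spread between horses alone.

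Reads in the libraries ran from 2029244 to 12613572, but reads assigned to microRNAs only from 3916 to 1865513. The median library had 14055 in plasma, 42865.5 in OA-joint fluid and 26141 in CTRL-joint fluid. Levels are given as CPM, the share of these microRNA reads scaled to a common total. In 3 plasma libraries microRNA made up 5.86 to 18.6% of the library, against at most 1.91% in all others, so that 84.1% of the plasma microRNA reads came from them. By the number in the deposited file names, all 26 plasma libraries came from sequencing lane 1, against 2 of the OA and 8 of the CTRL libraries. Lane therefore moves with fluid, and lane and fluid cannot be told apart for most libraries. Intervals and limits from read numbers cover counting error only, since reads are not independent molecules.

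The 3 microRNAs were either clearly present in a library or nearly absent from it. Of their 234 values (3 microRNAs in 78 libraries), 126 were 0 reads, 33 were 1 to 3 reads, 0 were 4 to 9 reads and 75 were 10 reads or more. The lowest of those 75 was 14 reads. Among all microRNAs with a read, values of 4 to 9 reads were also rare, at 2.79% of the 5849 values above 0, while 79.2% were 10 reads or more. For the 3 microRNAs 69.4% of the 108 values above 0 were 10 reads or more.

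**Figure D1:**
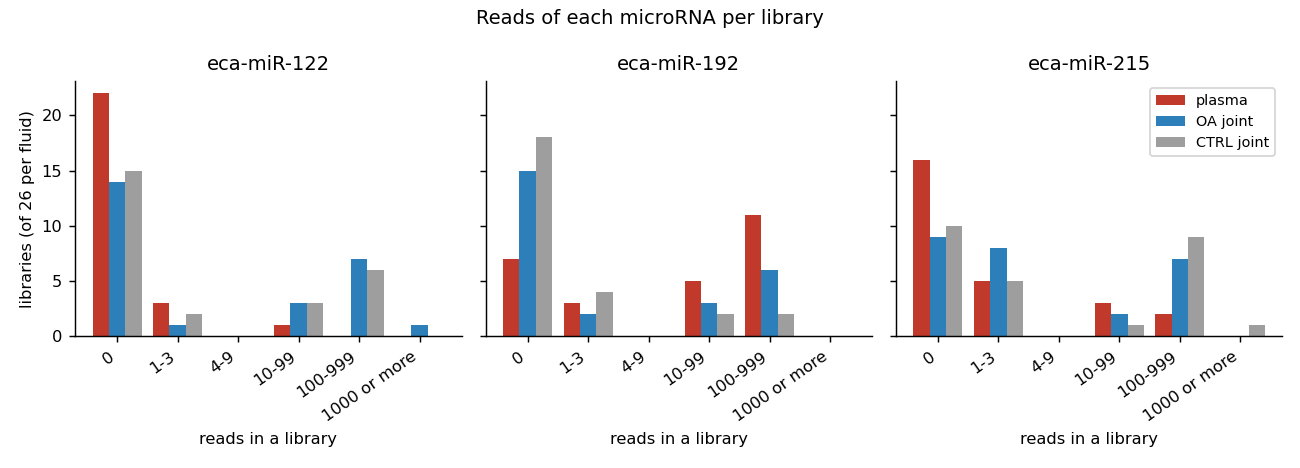
Libraries (vertical axis, of 26 per fluid) by the number of reads of eca-miR-122, eca-miR-192 and eca-miR-215 (horizontal axis), with plasma in red, the OA joint in blue and the CTRL joint in grey. The class of 4 to 9 reads is empty in each panel, and miR-192 is the microRNA with the fewest plasma libraries at 0 reads (7 of 26).

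Levels that libraries at 0 could still hold were set against those of libraries with reads. A count of 0 allows a level of up to 3 reads. In the 14 OA libraries without miR-122 that limit was 48.5 to 125 CPM, while the 11 OA libraries with 10 or more reads held 501 to 44792 CPM. For miR-215 in the CTRL joint the limit was 66.8 to 265 CPM in 10 libraries at 0, against 3672 to 26334 CPM in the 11 libraries with 10 or more reads. For miR-192 in plasma the limit at 0 was 4.89 to 432 CPM, against 92.7 to 28651 CPM where it was read 10 times or more. Over all fluids the limit lay under the median level of the detecting libraries in 51 of 51 libraries at 0 for miR-122, 40 of 40 for miR-192 and 35 of 35 for miR-215. It lay under the lowest level of the detecting libraries in 40 of 51, 25 of 40 and 2 of 35. Plasma libraries at 0 for miR-192 had a median of 48496 microRNA reads, more than the 14055 of those with 10 or more reads. In the CTRL joint the order was the other way for miR-215, with 22593 microRNA reads at 0 and 50390 with 10 or more.

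They were also read in fewer libraries than microRNAs of like abundance. miR-122 had a read in 27 of 78 libraries, against a median of 39 (range 18 to 57) for the 12 microRNAs whose mean level lay nearest. miR-192 had a read in 38, against 53 (37 to 73) for 11 such microRNAs. miR-215 had a read in 43, against 51 (37 to 67) for 11.

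Each of the 3 had its own fluid order. By the mean over libraries, miR-192 ranked 31 of the 234 microRNAs read in plasma (6236 CPM), 71 of the 194 in the OA joint (1110 CPM) and 97 of the 188 in the CTRL joint (417 CPM). miR-122 ranked 120 in plasma (167 CPM), 48 in the OA joint (3075 CPM) and 60 in the CTRL joint (1471 CPM). miR-215 ranked 54 in plasma (1569 CPM), 66 in the OA joint (1235 CPM) and 42 in the CTRL joint (4420 CPM). These means rest in part on single libraries. The OA mean of miR-122 was 1406 CPM without horse 8 at time point 35, and its plasma mean 8.45 CPM without horse 4 at time point 0. The plasma mean of miR-215 was 853 CPM without horse 4 at time point 35, and the CTRL mean of miR-192 was 238 CPM without horse 4 at time point 63. Reads of miR-122 came from 12 of 26 OA libraries, against 17 for miR-215.

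miR-122 was nearly absent from plasma vesicles. It had 83 reads over 26 plasma libraries, 80 of them (96.4%) in the library of horse 4 at time point 0, which stood at 4138 CPM. The other 3 reads lay in horse 8 at time point 0 (68.3 CPM) and in horses 4 and 6 at time point 63 (22.5 and 120 CPM). The remaining 22 plasma libraries were at 0, with limits of 1.61 to 766 CPM.

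In joint fluid miR-122 appeared in scattered libraries of all 4 horses. In the OA joint it stood at 5433 CPM in horse 4 at time point 0, with the other 3 horses at 0. At time point 10 it stood at 2825 CPM in horse 2 and 10923 CPM in horse 6, with horse 8 at 0. At time point 35 horse 8 held 44792 CPM, the highest miR-122 value of all libraries, and horse 4 held 5153 CPM, with horses 2 and 6 at 0. That library of horse 8 held 1181 of the 3033 OA reads (38.9%). Its leading microRNAs were let-7c, miR-21 and miR-26a at 12.7, 8.96 and 8.94% of microRNA reads, against OA medians of 11.6, 5.68 and 10.8%.

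From time point 42 on, the OA values of miR-122 reached at most 3097 CPM. Horse 2 stood alone at time point 42 with 2050 CPM. At time point 49 horses 4 and 8 stood at 1827 and 3097 CPM, with horses 2 and 6 at 0. At time point 56 the values were 1698, 47.3, 0 and 1600 CPM in horses 2, 4, 6 and 8. At time point 63 horse 8 stood at 501 CPM and horses 4 and 6 at 0. Horse 6 thus had the microRNA in 1 of 7 OA libraries, and horse 8 in 4 of 7.

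In the CTRL joint miR-122 had its highest group mean, 4734 ± 4538 CPM (SD, n = 4 horses), at time point 0. It stood there at 10861, 3250, 4786 and 40.1 CPM in horses 2, 4, 6 and 8. After time point 0 a single horse held it clearly at time points 10 (horse 8, 3781 CPM), 35 (horse 2, 3664 CPM), 42 (horse 4, 5902 CPM) and 56 (horse 8, 3643 CPM). At time point 49 horses 2 and 4 stood at 241 and 1841 CPM, and at time point 63 horse 8 held 1 read. Of the 26 occasions when a horse was sampled, miR-122 had 10 or more reads in all 3 fluids on 1, in exactly 2 fluids on 2, in a single fluid on 14 and in none on 9.

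miR-192 was the plasma microRNA of the 3. It had 10 or more reads in 16 of 26 plasma libraries, against 9 of 26 in the OA joint and 4 of 26 in the CTRL joint. In plasma at time point 0 it stood at 0, 9932, 3761 and 8542 CPM in horses 2, 4, 6 and 8. At time point 10 it stood at 4731, 0 and 28651 CPM in horses 2, 6 and 8, the last being its highest value. At time point 35 horse 2 was at 0, and horses 4, 6 and 8 stood at 12491, 17289 and 13923 CPM.

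Plasma miR-192 was high in 2 horses at time point 42, with 13279 and 15807 CPM in horses 2 and 4, and lower in horses 6 and 8 (1344 and 38.9 CPM). At time point 49 it stood at 4822 and 10559 CPM in horses 2 and 4 and at 0 in horses 6 and 8. At time point 56 the values were 0, 76.5, 162 and 7520 CPM in horses 2, 4, 6 and 8. At time point 63 they were 9107, 0 and 92.7 CPM in horses 4, 6 and 8. Horse 4 had a read of it in 6 of 6 plasma libraries, with a median of 10246 CPM, and horse 2 in 3 of 6, with a median of 2365 CPM. The 3 libraries rich in microRNA held little: 0 reads in horse 2 at time point 0, 0 in horse 6 at time point 10 and 92.7 CPM in horse 8 at time point 63.

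In the OA joint miR-192 was read at 6 of the 7 time points. It stood at 7228, 3769, 0 and 23.5 CPM in horses 2, 4, 6 and 8 at time point 0, and at 3629, 627 and 3636 CPM in horses 2, 6 and 8 at time point 10. At time point 35 horse 4 stood at 1608 CPM and horse 8 at 37.9 CPM, and at time point 42 all 4 horses were at 0. Single horses held it at time points 49 (horse 6, 3505 CPM), 56 (horse 2, 2035 CPM) and 63 (horse 6, 2751 CPM).

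The CTRL joint held almost no miR-192 before time point 49. It had 1 read each in horses 2 and 6 at time point 0, and 0 reads in all libraries of time points 10, 35, 42 and 56. At time point 49 it stood at 2859, 0, 44.0 and 334 CPM in horses 2, 4, 6 and 8, and at time point 63 at 4882, 2405 and 230 CPM in horses 4, 6 and 8. The library of horse 2 at time point 49 held 687 of the 1009 CTRL reads (68.1%). On the 26 sampling occasions miR-192 had 10 or more reads in all 3 fluids on 0, in exactly 2 on 7, in a single fluid on 15 and in none on 4.

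Of the pair that shares a seed, miR-215 was clearly present in more joint than plasma libraries. It had 10 or more reads in 5 of 26 plasma libraries, 9 of 26 OA libraries and 11 of 26 CTRL libraries. In plasma all 5 belonged to horses 4 and 8: horse 8 at time point 10 (7362 CPM), horse 4 at time point 35 (19480 CPM), horse 8 at time point 35 (7644 CPM), horse 4 at time point 42 (5953 CPM) and horse 8 at time point 63 (34.8 CPM, 65 reads in the deepest library). Horses 2 and 6 held 1 and 2 plasma reads in all.

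In the OA joint miR-215 was at or near 0 in all horses at time point 0, with 0, 0, 35.6 and 23.5 CPM in horses 2, 4, 6 and 8. At time point 10 it stood at 0, 27.9 and 2654 CPM in horses 2, 6 and 8. Its highest OA value came at time point 35, with 20.0, 8657, 4342 and 0 CPM in horses 2, 4, 6 and 8. At time point 42 horse 8 stood at 1925 CPM and the others at 0 to 20.8 CPM. Horses 6 and 8 led at time point 49 with 6760 and 3355 CPM, while horses 2 and 4 stood at 0 and 87.0 CPM. At time point 56 the values were 2035, 142, 0 and 1461 CPM, and at time point 63 horse 8 stood at 556 CPM and horses 4 and 6 at 0.

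In the CTRL joint miR-215 had group means of 5100 to 8844 CPM at time points 10 to 49, against 1678, 1.95 and 2366 CPM at 0, 56 and 63. At time point 0 it had 6664 CPM in horse 8, 47.2 CPM in horse 2 and 0 in horses 4 and 6. At time point 10 all 3 horses held it, at 3672, 4132 and 7496 CPM in horses 2, 6 and 8. At time point 35 the values were 29.5, 8307, 15739 and 0 CPM in horses 2, 4, 6 and 8, and at time point 42 they were 17060, 13087, 0 and 5228 CPM.

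At CTRL time point 49 miR-215 was high in a single library. Horse 2 stood at 26334 CPM, its highest value of all, with horses 4 and 6 at 0 and horse 8 at 23.9 CPM. At time point 56 all 4 CTRL libraries held at most 1 read, and at time point 63 horse 4 stood at 6866 CPM and horses 6 and 8 at 0 and 230 CPM. The library of horse 2 at time point 49 held 6328 of the 10057 CTRL reads of miR-215 (62.9%). It was led by miR-92a, miR-451 and miR-25 at 15.3, 8.90 and 7.75% of microRNA reads, against medians of 3.64, 1.61 and 0.897% in the other CTRL libraries. The 7 erythrocyte microRNAs together made up 42.4% of it, against 5.06 to 32.8% (median 15.0%) in the other CTRL libraries, and the part of that in miR-215 was not tested.

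**Figure D2:**
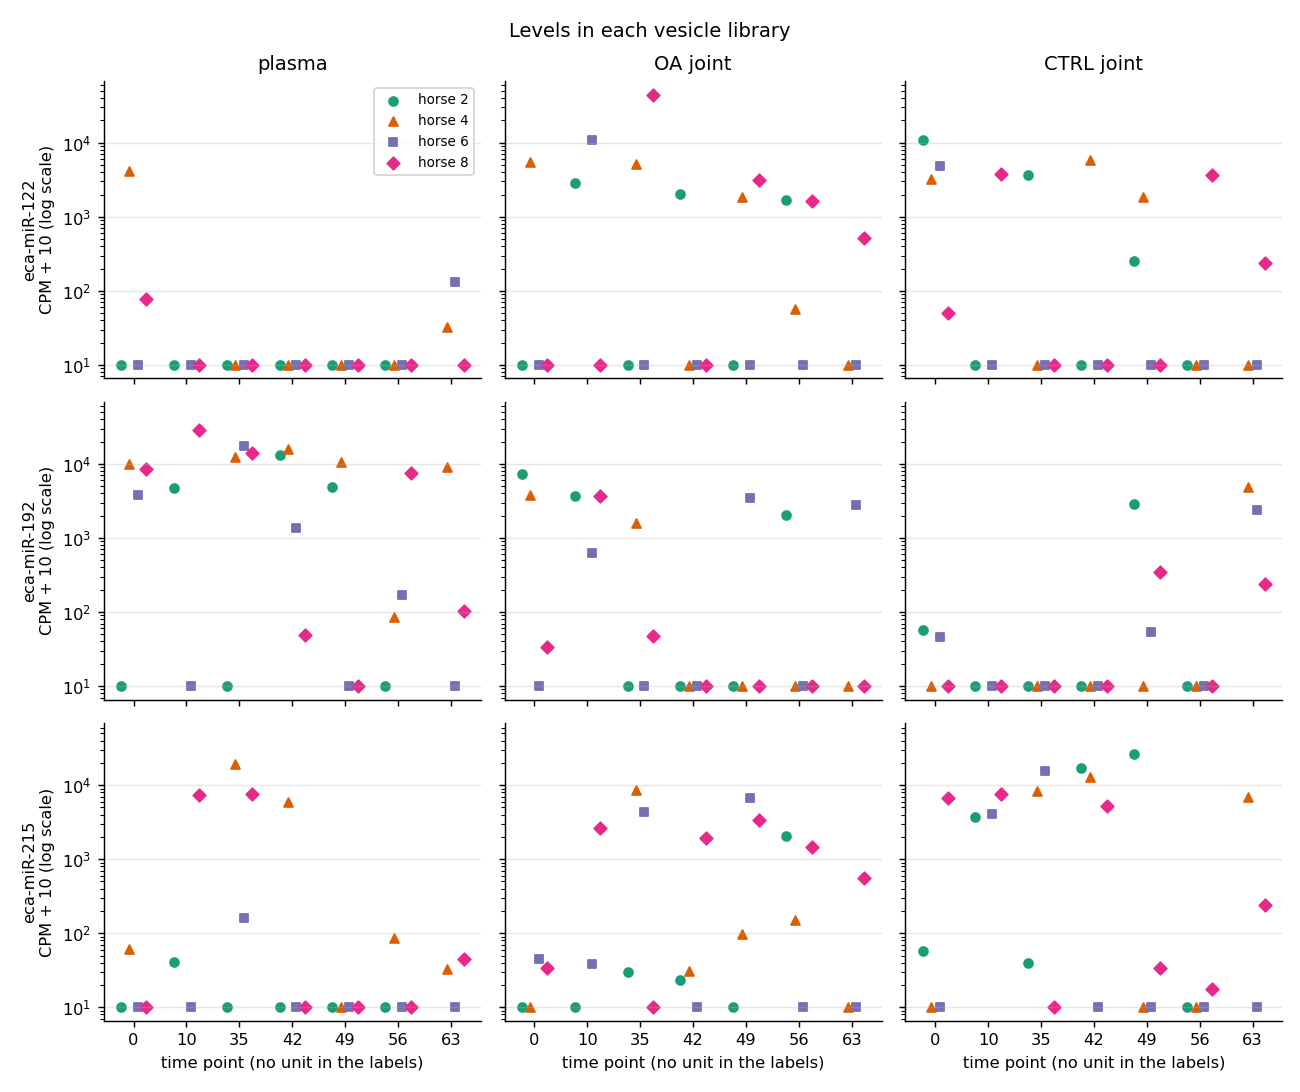
CPM + 10 on a log axis (vertical) of eca-miR-122, eca-miR-192 and eca-miR-215 (rows) in each library by time point (horizontal), with plasma, OA joint and CTRL joint as columns and the 4 horses as coloured symbols. Points at the bottom line are libraries at 0 reads, as in 22 of 26 plasma libraries for miR-122 and 18 of 26 CTRL libraries for miR-192.

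Neighbouring samples of a horse often differed. Over 22 such pairs in plasma, miR-192 had 10 or more reads in both on 8 and in only 1 on 11. For miR-215 in the CTRL joint the counts were 4 and 12, and for miR-122 in the OA joint 3 and 13. Lane also moved with detection in the CTRL joint, where the 8 lane 1 libraries had a median of 22593 microRNA reads and the 18 lane 2 libraries 44456. miR-215 had a read in 1 of those 8 lane 1 libraries, against 15 of 18 in lane 2, and miR-122 in 1 of 8, against 10 of 18. miR-192 had a read in 3 of 8, against 5 of 18. Most of those lane 1 libraries came from horse 6. The rest came from horses 2 and 4 at time point 56, and none came from horse 8. Lane, horse and time point therefore cannot be told apart here, and the part of lane in these differences was not tested.

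To compare fluids, the counts of all libraries of a horse were summed, which gives deep libraries more weight. In these sums miR-122 stood at 0, 723, 1.28 and 0.516 CPM in plasma of horses 2, 4, 6 and 8. In the OA joint it stood at 1268, 1844, 2612 and 4253 CPM and in the CTRL joint at 1341, 2575, 723 and 2189 CPM. The means were 181 ± 361 CPM in plasma, 2494 ± 1296 CPM in the OA joint and 1707 ± 835 CPM in the CTRL joint (SD, n = 4 horses). Plasma was lower than the OA joint in all 4 horses. Plasma of horse 4 (723.3 CPM) lay just above the CTRL sum of horse 6 (722.9 CPM), so those fluids overlapped by that pair, while within each horse plasma was the lower.

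miR-192 sums in plasma were above the OA joint in 1 of 4 horses and above the CTRL joint in 3 of 4. They were 1252, 9680, 475 and 315 CPM in plasma of horses 2, 4, 6 and 8. The sums were 1532, 953, 996 and 435 CPM in the OA joint and 1395, 1139, 331 and 46.9 CPM in the CTRL joint. The plasma mean of 2930 ± 4518 CPM, against 979 ± 448 CPM in the OA joint and 728 ± 642 CPM in the CTRL joint (SD, n = 4 horses), rested on horse 4. Without the 3 plasma libraries rich in microRNA the plasma sums were 3244, 9680, 2192 and 5994 CPM, above both joints in all 4 horses, with a mean of 5277 ± 3344 CPM.

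miR-215 stood at 2.36, 2232, 2.55 and 81.5 CPM in plasma of horses 2, 4, 6 and 8, in the same sums. It stood at 490, 1114, 1066 and 1526 CPM in the OA joint and at 14937, 6730, 2963 and 2196 CPM in the CTRL joint. The means were 580 ± 1102, 1049 ± 426 and 6706 ± 5834 CPM in plasma, the OA joint and the CTRL joint (SD, n = 4 horses). Plasma was lower than the CTRL joint in all 4 horses, although plasma of horse 4 lay just above the CTRL sum of horse 8. It was lower than the OA joint in 3 of 4, the exception being horse 4.

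**Figure D3:**
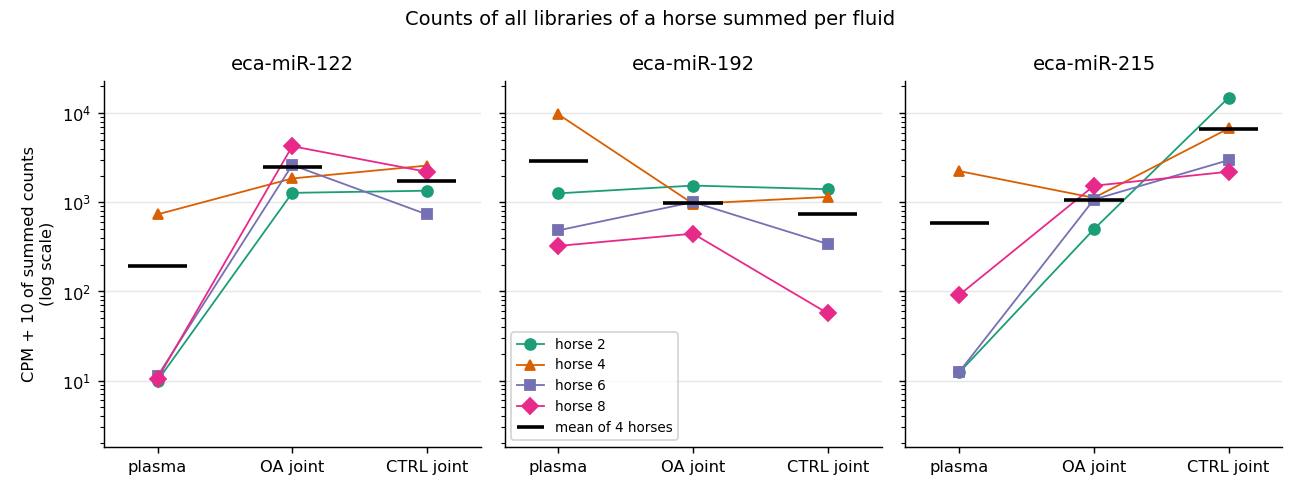
CPM + 10 of the counts of all libraries of a horse summed per fluid (vertical, log axis) for eca-miR-122, eca-miR-192 and eca-miR-215, with 1 line per horse and black bars for the mean of 4 horses. Plasma miR-122 lies at 0 to 1.28 CPM in 3 horses and at 723 CPM in horse 4.

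Weighting each library equally gave other levels for miR-192 and miR-215. For miR-192 the mean of horse means was 6271 ± 3235 CPM in plasma, against 1139 ± 701 CPM in the OA joint and 433 ± 304 CPM in the CTRL joint (SD, n = 4 horses), with plasma above both joints in each horse. For miR-215 it was 1610 ± 2036 CPM in plasma, against 1212 ± 583 CPM in the OA joint and 4553 ± 2376 CPM in the CTRL joint (SD, n = 4 horses). Plasma thus stood above the OA joint by this mean and below it in the sums, being higher in horses 4 and 8 and lower in horses 2 and 6. Matched by horse and time point, plasma miR-192 was higher than the OA joint in 19 of 26 pairs and lower in 5, and higher than the CTRL joint in 18 and lower in 5. miR-122 was higher in plasma than in the OA joint in 3 of 26 pairs and lower in 12, and against the CTRL joint higher in 4 and lower in 9. miR-215 was higher in plasma than in the OA joint in 7 pairs and lower in 14, and against the CTRL joint higher in 4 and lower in 15. The rest were pairs with 0 in both fluids.

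In the fit over all microRNAs, plasma against the CTRL joint gave log2 folds of -3.28 (SE 2.05) for miR-122, 1.96 (SE 1.26) for miR-192 and -3.63 (SE 1.61) for miR-215. With edgeR, 27 of 126 microRNAs tested were called (21.4%) and 0 of the 3. With horse as a block, which uses that both fluids came from the same animal, 22.2% were called, among them miR-122 (-9.17, SE 3.06) and miR-215 (-6.97, SE 1.99). These blocked folds rest on plasma sums of 0 to 2 reads in horses 2 and 6, so their size depends on how the fit treats zeros and is no bound. The blocked calls were lost without the 3 plasma libraries rich in microRNA (-6.04, SE 2.94, and -4.37, SE 2.21) and without the libraries of horse 2 at time point 49 (-9.28, SE 3.08, and -6.64, SE 2.16). Those 2 blocked fits called 1.89% and 24.8% of all microRNAs tested. Among lane 1 libraries alone, miR-215 stood at 0.66 (SE 2.46) and miR-192 at 4.74 (SE 2.11), while miR-122 had too few reads to be tested. The CTRL sums of that fit lacked horse 8, and those of horses 2 and 4 came from time point 56 alone. It therefore compares unlike sets of horses and time points as well as fluids.

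Plasma against the OA joint gave log2 folds of -3.16 (SE 2.13) for miR-122, 2.00 (SE 1.15) for miR-192 and -0.22 (SE 1.86) for miR-215. Here edgeR called 31 of 126 (24.6%) and 0 of the 3. The blocked fit called 23% and among them miR-122 (-9.98, SE 3.13), but not without the libraries rich in microRNA (-7.24, SE 3.37). Without those libraries and without the block 20.6% were called, among them miR-192 (2.84, SE 0.78). With the block and without those libraries miR-192 stood at 2.76 (SE 1.18) and was not called. The median log2 fold over all microRNAs tested was -0.16 against the CTRL joint and 0.11 against the OA joint. It moved to -0.31 against the OA joint without TMM scaling, where the folds of the 3 were -3.80, 1.58 and -0.86. Both comparisons share the plasma sums.

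Horse 4 decided several of these values. Without it miR-122 stood at -10.36 against the CTRL joint and -11.23 against the OA joint, and both passed. The fits without horse 4 called 27% and 30.1% of all microRNAs tested. Plasma sums of miR-122 were then 0, 1 and 1 reads in horses 2, 6 and 8, so the size of its folds depends on how the fit treats zeros. miR-215 stood at -7.27 against the CTRL joint and passed, and at -4.66 against the OA joint. miR-192 stood at 0.79 against the CTRL joint and at -0.27, below 0, against the OA joint. In limma on mean log2(CPM + 10) of the libraries of a horse, miR-192 stood at 4.57 against the CTRL joint and 3.20 against the OA joint, and miR-122 at -2.52 and -3.02, all past the threshold. There limma called 28.6% of all microRNAs tested against the CTRL joint (7 higher and 29 lower in plasma). Against the OA joint it called 31% (5 higher and 34 lower). The median log2 folds were -0.62 and -0.79.

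Between joints after time point 0, miR-215 had the largest fitted fold of the 3. It had led this comparison in the earlier pass over the same counts, so its size is a description and no test. Its sums were 528, 1391, 1173 and 1738 CPM in the OA joint of horses 2, 4, 6 and 8, against 15605, 7268, 3490 and 1818 CPM in the CTRL joint. The OA joint was lower in all 4 horses, in horse 8 by little. The means were 1208 ± 509 CPM in the OA joint and 7045 ± 6145 CPM in the CTRL joint (SD, n = 4 horses). The fitted log2 fold was -2.67 (SE 0.64). In edgeR 0 of 117 microRNAs were called (0%), with 10 at an unadjusted p under 0.05, while DESeq2 called 4 and among them miR-215 (-2.56). With horse as a block 2.56% were called, among them miR-215 (-2.14, SE 0.65).

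That difference shrank without 1 library pair. Without horse 2 at time point 49 the CTRL mean was 4263 ± 2284 CPM, against 1238 ± 456 CPM in the OA joint, and the fold was -1.83 (SE 0.57). The blocked fold was then -1.75 (SE 0.75) and was not called. Within lane 2 it stood at -2.95 (SE 0.87), uncalled. By single samples the picture was less one-sided than by sums, with the OA joint higher in 8 of 22 pairs of the same horse and time point, lower in 10 and both at 0 in 4. In the 15 pairs with both libraries in lane 2 the OA joint was higher in 5 and lower in 9. In limma on mean log2(CPM + 10) the fold was -1.15 (SE 1.23), smaller than its error.

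miR-122 and miR-192 did not differ between joints beyond their spread. miR-122 stood at 1367, 951, 2882 and 4853 CPM in the OA joint of horses 2, 4, 6 and 8, against 913, 2521, 0 and 2371 CPM in the CTRL joint, a log2 fold of 0.72 (SE 1.18). The OA joint was higher in 3 of 4 horses and the groups overlapped. miR-192 stood at 1085, 252, 1099 and 493 CPM in the OA joint, against 1456, 1231, 383 and 50.9 CPM in the CTRL joint, a log2 fold of -0.09 (SE 1.36). It was higher in the OA joint of 2 horses and lower in 2, and its fold was 1.07 (SE 1.81) without horse 2 at time point 49. Standard errors of this size allow differences of several fold in either direction. The median log2 fold of all microRNAs tested was -0.03.

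**Figure D4:**
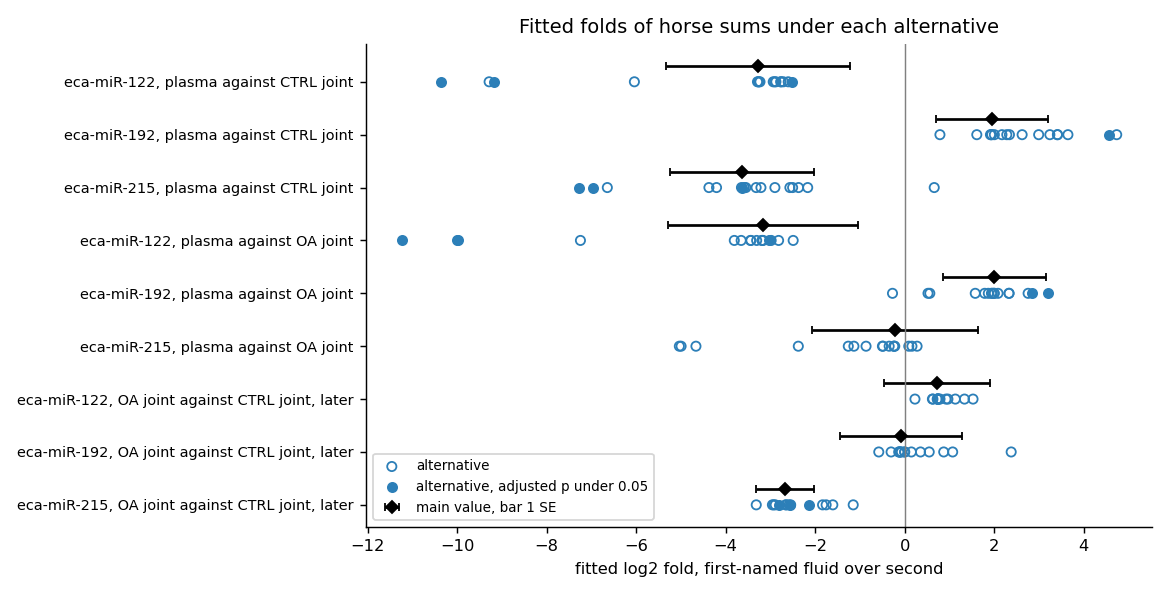
Fitted log2 folds (horizontal, first-named fluid over second) of eca-miR-122, eca-miR-192 and eca-miR-215 in the comparisons of horse sums (vertical), as black diamonds with 1 SE, and under each alternative as blue circles, filled where the adjusted p was under 0.05. The folds of miR-122 in plasma reach -11.23 without horse 4, and those of miR-192 between joints lie on both sides of 0.

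At single time points the joints were compared in 1 fit of all 52 synovial fluid libraries. None of the 3 microRNAs was called at any of the 7 time points in edgeR. The whole fit called 0 of 139 microRNAs (0%) at 6 time points, with 3 to 24 at an unadjusted p under 0.05, and 1 of 139 (0.719%) at time point 35. DESeq2 called 11 to 20 of 115 a time point. At time point 10 the values of miR-192 did not overlap, with the OA joint at 3629, 627 and 3636 CPM and the CTRL joint at 0 in all 3 horses (edgeR adjusted p = 0.371). Those of miR-215 did not overlap there either, with the OA joint at 0, 27.9 and 2654 CPM against 3672, 4132 and 7496 CPM in the CTRL joint (edgeR adjusted p = 1). How many of all microRNAs did not overlap there was not counted, and neither of these was called, so no result about the pair is drawn.

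At time point 56 miR-215 stood at 2035, 142, 0 and 1461 CPM in the OA joint, against 0, 0, 0 and 7.80 CPM in the CTRL joint (edgeR adjusted p = 0.439). There 0 of 4 OA libraries and 3 of 4 CTRL libraries came from lane 1. With lane as a covariate the log2 fold was 5.35 (SE 4.06, adjusted p = 0.854), against 6.81 (SE 2.95) without it. At time point 0 miR-215 was at 14.8 ± 17.7 CPM in the OA joint and 1678 ± 3324 CPM in the CTRL joint (SD, n = 4 horses, edgeR adjusted p = 0.283), the CTRL mean coming from horse 8. At time point 42 it stood at 490 ± 957 CPM in the OA joint and 8844 ± 7677 CPM in the CTRL joint (SD, n = 4 horses, edgeR adjusted p = 0.386). DESeq2 called 4 of the 21 tests of the 3 microRNAs: miR-192 at time points 10, 35 and 56, where the CTRL joint was at 0 reads, and miR-215 at time point 56. Of all microRNAs tested it called 12.2%, 15.7% and 17.4% at time points 10, 35 and 56, so these 4 are no result about the 3.

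Over time none of the 3 was called. In the OA joint the edgeR F-test against time point 0 gave an adjusted p = 0.536 for miR-122, 0.610 for miR-192 and 0.399 for miR-215. It called 0 of 139 microRNAs (0%), with 45 at an unadjusted p under 0.05, and DESeq2 called 0. In the CTRL joint the edgeR adjusted p was 0.870 for miR-122, 0.0888 for miR-192 and 0.218 for miR-215, with 0 of 139 called (0%), 46 at an unadjusted p under 0.05, and 2 called in DESeq2. The block on horse gave 6.47% called in the CTRL joint, among them miR-192 (edgeR adjusted p = 0.0384). Without horse 2 at time point 49 that blocked fit no longer called miR-192 (edgeR adjusted p = 0.0644), and it called miR-215 (0.0175). It then called 4.35% of all microRNAs tested. miR-192 over time in the CTRL joint had stood out in the earlier pass over the same counts. Its p-values there therefore describe the fits and are no test.

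In plasma the edgeR adjusted p over time was 0.986 for miR-192 and 0.0773 for miR-215, with 10 of 92 microRNAs called (10.9%). Plasma miR-215 was highest at time point 35, at 6818 ± 9165 CPM (SD, n = 4 horses), and at 0 in all 4 horses at time point 49. miR-122 was read too rarely in plasma to be tested over time. The change over time was also set against that of the other joint. The edgeR adjusted p of this interaction was 1 for miR-122, 0.442 for miR-192 and 0.254 for miR-215, with 1 of 139 microRNAs called (0.719%). For miR-215 it passed in 2 of 12 alternatives. It was 0.0292 without horse 8, where 1.97% of all microRNAs tested were called, and 0.0157 in a fit that left out no horse.

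The 3 microRNAs seldom came together. Of 78 libraries, 26 held 10 or more reads of none of them, 32 of 1, 17 of 2 and 3 of all 3. miR-192 and miR-215 were both at 10 or more reads in 11 libraries, against 29 with miR-192 and 25 with miR-215. In those 11 the ratio of miR-192 to miR-215 reads ran from 0.109 to 3.89, and it was exactly 1 in the OA joint of horse 2 at time point 56, with 163 reads of each. Spearman's rho of their levels over the 78 libraries was 0.06. It was -0.05 between miR-122 and miR-192 and 0.14 between miR-122 and miR-215. The libraries share horses and differ in depth, so these values are descriptions.

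The other microRNAs of liver and gut ranged from none to many reads. miR-194, which lies beside both miR-192 and miR-215 in human, had 4 reads in 1 plasma library, 0 in the OA joint and 120 in 1 CTRL library. Of the 6 microRNAs of a liver list, 5 had reads, and miR-885-5p was at 0. miR-148a, expressed in liver and in many other tissues, was the one with reads in most libraries, 21 of 26 in plasma and 26 of 26 in each joint. It averaged 2957 CPM in plasma, 13251 CPM in the OA joint and 13157 CPM in the CTRL joint. It was called lower in plasma against CTRL-joint fluid (log2 fold -2.22, SE 0.56, edgeR adjusted p = 0.0114) and against the OA joint (-1.88, SE 0.62, edgeR adjusted p = 0.0465). In both comparisons it was the 1 of 4 tested liver microRNAs that passed. Over all 126 microRNAs 11.1% were called lower in plasma against the CTRL joint and 9.52% against the OA joint, so 1 of 4 is no result about the list.

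Of the 11 microRNAs of a list for gut and other epithelium, 9 are named in the files and 8 had reads, while miR-429 of the miR-200 family was at 0. Beside miR-192 and miR-215, the widest of them was miR-141, another member of that family, with reads in 19 of 78 libraries. None of 5 or 6 tested members of this list passed in any of the 3 comparisons, against the background shares given above. Its median share of microRNA reads was 0.428% in plasma, 0.279% in OA-joint fluid and 0.304% in CTRL-joint fluid. Without miR-192 and miR-215 it was 0% in plasma, 0% in OA-joint fluid and 0.00247% in CTRL-joint fluid.

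**Figure D5:**
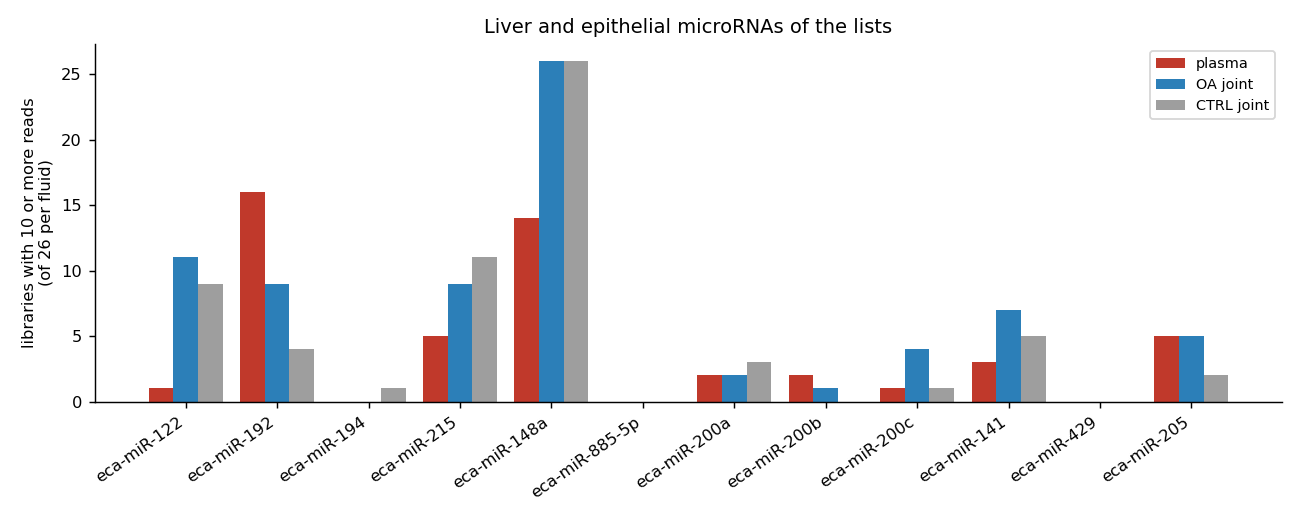
Libraries with 10 or more reads (vertical, of 26 per fluid) of each microRNA of the liver and epithelial lists that the files name (horizontal), with plasma in red, the OA joint in blue and the CTRL joint in grey. miR-148a reaches 26 of 26 in both joints, and miR-885-5p and miR-429 have no bar.

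Among microRNAs read in at least 39 of the 78 libraries, the levels most like those of miR-215 were those of miR-25 (Spearman's rho 0.65), miR-92a (0.44) and miR-16 (0.43), all members of the erythrocyte list. For miR-192 they were miR-486-5p (0.46), also of the erythrocyte list, miR-126-5p (0.34) of the platelet and endothelial list, and miR-92a (0.20). For miR-122 they were miR-342-3p (0.31), miR-186 (0.30) and miR-146b-5p (0.29). All are over 78 libraries that share horses, fluids and lanes. The erythrocyte list had a median of 48.9% of microRNA reads in plasma, 12.9% in OA-joint fluid and 15.3% in CTRL-joint fluid, with ranges of 2.27 to 78.8%, 4.32 to 24.0% and 5.06 to 42.4%. Among its members with reads in at least 20 libraries, only miR-486-5p had a higher mean in plasma than in both joints. Its means were 371431, 60786 and 64297 CPM in plasma, the OA joint and the CTRL joint. Plasma means of miR-16 and miR-25 were below both joints, and those of miR-451 and miR-92a lay between the joints. The platelet and endothelial list had medians of 3.87%, 2.74% and 3.07% in the same order of fluids. Against each joint 3 of its 4 tested members were called higher in plasma, while miR-223 was fitted lower (-2.20 and -1.48) and not called. Of all microRNAs tested, 10.3% were called higher against the CTRL joint and 15.1% against the OA joint. Without the plasma libraries rich in microRNA only 1.89% were called against the CTRL joint, 1 higher and 1 lower, so most of those calls were lost there. In lane 1 alone, where the CTRL sums lacked horse 8, 0.813% were called. Of the erythrocyte list 2 of 6 tested members were called lower in plasma against the CTRL joint, and 0 of 7 against the OA joint, beside the 11.1% and 9.52% given above. Between joints 0 members of any of these lists were called. In that fit miR-451, miR-25 and miR-92a had log2 folds of -1.42 (SE 0.38), -1.35 (SE 0.39) and -1.22 (SE 0.36). miR-16 stood at -0.67 (SE 0.36) and miR-486-5p at 0.02 (SE 0.26). The median fold of the 7 tested erythrocyte members was -1.22, so a lower fitted level in the OA joint was not particular to miR-215. The part of these lists in the levels of miR-192 and miR-215 was not tested.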

How the data were processed

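The labels name vesicles of plasma and of 2 joints of 4 horses, with libraries from the TriLink CleanTag kit. The submitters' processing notes list cutadapt, Bowtie, edgeR and the build EquCab3.0. They give no versions, and the assignment of reads that match more than 1 microRNA is not stated in what was used here. Values rest on the read counts per microRNA that the authors deposited as whole numbers. The deposited columns in RPM of the library total, and in a score that relates reads to the microRNA sum, served to recover library totals and to check that sum, which differed by 0 reads. Spike-in reads were left out.

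Levels are unscaled CPM of the microRNA reads. Tests used edgeR 4.0.16 in R 4.3.3 (quasi-likelihood F-test, TMM, filterByExpr with a minimum count of 10, Benjamini-Hochberg over all microRNAs tested, threshold 0.05), with limma 3.58.1 and DESeq2 1.42.0 as alternatives, and were tested on simulated data. Fluids and joints were compared on counts summed per horse, 4 against 4 unless an alternative lacked a horse. Time points were compared in 1 fit of 14 joint groups or of 7 plasma groups. Python 3.11.15 with numpy 2.4.6, pandas 2.3.3, scipy 1.17.1 and matplotlib 3.10.9 did the rest.

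The groups share horses, so the horse labels pair the samples by animal. The correlation of paired deviations from the group means was -0.19 to 0.09. The members and lists were chosen with earlier results of these data known. The microRNAs named are the 3 members, list members with reads in at least 20 libraries or miR-194 (miR-141, miR-885-5p and miR-429 were added after their values were seen), for each member the 3 with the highest Spearman correlation, and the 3 leading microRNAs of a library that stands apart. No sequence is printed, since no sequence table was used here.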

Additional observations from a re-analysis of the deposited data

Results flagged for a closer look

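In 25 of 63 groups of 4 horses that were checked, 1 horse stood farther above the other 3 than Dixon's 95% limit allows, and in none did a horse stand that far below. Chance would flag about 1 in 20 groups of normally distributed values, but values with this many zeros are not of that kind. Besides the 45 groups by time point, the groups are horse sums that share libraries. The number flagged therefore cannot be set against that rate. A group with 3 horses at 0 reads and 1 above it is always flagged, which holds for 11 of the 25.

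For eca-miR-122 they were horse 2 at time point 35 (3664 CPM), horse 4 at 42 (5902 CPM), horse 4 at 49 (1841 CPM) and horse 8 at 56 (3643 CPM) in the CTRL joint. In the OA joint they were horse 4 at 0 (5433 CPM), horse 8 at 35 (44792 CPM) and horse 2 at 42 (2050 CPM), and in plasma horse 4 at 0 (4138 CPM). For eca-miR-192 they were horse 2 at 49 in the CTRL joint (2859 CPM), horse 4 at 35 (1608 CPM), horse 6 at 49 (3505 CPM) and horse 2 at 56 (2035 CPM) in the OA joint, and horse 8 at 56 in plasma (7520 CPM). For eca-miR-215 they were horse 8 at 0 (6664 CPM), horse 2 at 49 (26334 CPM) and horse 8 at 56 (7.80 CPM, 1 read) in the CTRL joint. Horse 8 at 42 in the OA joint (1925 CPM) and horse 4 in plasma at 0 (51.7 CPM, 1 read), 42 (5953 CPM) and 56 (76.5 CPM, 1 read) complete the list.

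In the counts summed per horse, horse 4 stood apart in plasma for all 3 microRNAs. Over all libraries it held 723 CPM of miR-122, 9680 CPM of miR-192 and 2232 CPM of miR-215, and after time point 0 it held 10.8 CPM of miR-122 and 2687 CPM of miR-215.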

How the results depend on the processing

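Of 143 recomputed folds of the 3 microRNAs, 114 kept their direction and their side of the threshold. The horse as replicate block moved miR-122 (-9.17) and miR-215 (-6.97) past the threshold against the CTRL joint, miR-122 (-9.98, and -10.01 without horse 2 at time point 49) against the OA joint, and miR-215 (-2.14) between joints. It changed no other call of these folds. Besides folds without 1 horse, given below, miR-215 passed with no filter on low counts (-3.64 against the CTRL joint, -2.80 between joints) and by DESeq2 (-2.56 between joints). So did miR-192 without the plasma libraries rich in microRNA (2.84 against the OA joint), and in limma miR-122 (-2.52 and -3.02) and miR-192 (4.57 and 3.20). The shares of all microRNAs called were 12.8% and 2.34% with no filter, 3.48% by DESeq2, and 28.6% and 31% in limma.

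Besides folds without 1 horse, signs turned for miR-215 in lane 1 alone (0.66 against the CTRL joint), and against the OA joint without the libraries rich in microRNA (0.16) and by DESeq2 (0.094). Lane 1 alone holds no CTRL library of horse 8. Between joints miR-192 turned with the block (0.55), without horse 2 at time point 49 (1.07, and 2.38 with the block), without libraries under 10000 microRNA reads (0.0034), by DESeq2 (0.00083) and in limma (0.87). The cause was not tested.

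Leaving out each horse gave -10.36 to -2.71 for miR-122, 0.79 to 3.00 for miR-192 and -7.27 to -2.16 for miR-215 against the CTRL joint. Against the OA joint it gave -11.23 to -2.49, -0.27 to 2.34 and -4.66 to 0.28. Between joints it gave 0.23 to 1.34, -0.58 to 0.36 and -3.31 to -1.60. Of these, 3 folds passed, all without horse 4: miR-122 against both joints (-10.36 and -11.23) and miR-215 against the CTRL joint (-7.27). Those fits called 27% of all microRNAs tested against the CTRL joint and 30.1% against the OA joint. In 4 folds without 1 horse the sign turned: miR-215 (0.28, without horse 8) and miR-192 (-0.27, without horse 4) against the OA joint, and miR-192 between joints (0.15 without horse 2, 0.36 without horse 4).

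Over time 1 of 8 tests passed with the replicate block, 1 with the block without horse 2 at time point 49 and 1 with no filter on low counts (miR-215 in plasma, adjusted p = 0.0200), against 0 in edgeR as reported. The 2 blocked fits called 6.47% and 4.35% of all microRNAs tested in the CTRL joint. With no filter 15% were called in plasma. At single time points DESeq2 called 4, where it called 9.57 to 17.4% of all microRNAs tested a time point, and every other alternative run called 0. Lane 1 alone was not run for plasma against the OA joint, which has 2 libraries there from 1 horse. Depth limits levels under 1.61 to 766 CPM in plasma.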
